A study of Mus musculus with 8 samples.

Results

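The 10 genes followed here are markers of astrocytes. They were chosen by name with earlier results of these data known, so their counts are not independent evidence of a direction. Of these, 6 are known to be switched on when astrocytes become reactive (Gfap, Vim, Serpina3n, Lcn2, Cd44 and Osmr) and 4 are made by astrocytes in their resting, homeostatic state (Aqp4, S100b, Aldh1l1 and Sox9). All 10 were found on the arrays through the transcript accession of each probe, on 16 of 39429 measured probes, and the arrays held 19751 genes that could be named in all. RNA came from whole hippocampi dissected by hand from wild-type C57BL/6J mice that had received no treatment. By the study's methods, mice of the oldest age were bought from a supplier when already aged and were then housed for some months. By the labels, young adults were 3 months old (3M) and aged mice 29 months old (29M), an age at the end of the life span of this strain. The study's methods give its oldest mice as a range of ages around that label. Each group had 4 samples, each labelled with the dye Cy3 and hybridised to its own 1-colour array. The labels number the samples but do not say that each came from a separate animal, so p-values here measure the spread between these samples only. Because whole tissue was used, more cells of a type and more RNA per cell cannot be told apart in any value below.

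Astrocytes are the glia that wrap synapses and blood vessels, take up glutamate and potassium, and move water at their endfeet. After injury, inflammation or neurodegeneration they enter reactive states, in which they enlarge, build up intermediate filaments, and secrete proteins of the acute phase. One well-known route into this state runs from cytokines of the interleukin-6 family through receptors such as OSMR to the transcription factor STAT3, which binds the promoter of the gene for GFAP. The question asked of these data was which of these markers differ between the hippocampus of young and of very old mice, and whether the homeostatic markers move along with the reactive ones.

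The 8 arrays lay on 3 slides, each of which held both age groups. Between 76.2% (replicate 1 of 3M) and 85.0% (replicate 4 of 3M) of the 43020 spots that were not controls stood well above background, with 0 saturated. The scanner software had marked replicate 1 of 3M, and no other array, for evaluation. With 4 arrays a group, precision is limited by their number. Each array was taken for the sample with which its scanner file was deposited. In a separate deposited table, of background values only, 7 of 8 columns held the values of an array that this record gives to another sample, and 4 of the 8 those of an array of the other age group. Every difference between the groups, in its size as well as its direction, rests on the record of the scanner files, and which record is right was not tested. Levels are normalized log2 intensities of 1 probe and cannot be compared between probes. All 12 neuron markers, all 11 measured microglia markers and all 10 oligodendrocyte markers looked up were well above background on all 8 arrays, as were the probes with the highest mean of all 10 astrocyte genes.

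Among the 16 probes, 6 were higher in 29M and 0 were lower at an adjusted p under 0.1 (limma, adjusted over all tested probes) together with a log2 change of 0.5 or more in size. These 6 probes belonged to 4 genes, Gfap, Vim, Serpina3n and Osmr, which are all among the 6 reactive markers. Over all probes tested, 1.21% were called higher and 0.708% were called lower by the same rule, and over all named genes, each by its probe with the highest mean, 1.55% were called higher and 0.623% lower. Of the 5 probes of homeostatic genes 0 passed in limma, and 1 had an unadjusted p under 0.05, which 16.3% of all probes tested had. The median log2 change was 0.77 over the 6 reactive genes and 0.27 over the 4 homeostatic ones, against 0.01 over all named genes. The homeostatic median lay between Sox9 at 0.26 and the brighter Aqp4 probe at 0.28, with S100b at 0.34 and Aldh1l1 at -0.06. Without replicate 1 of 3M the change of Sox9 was -0.11. The 4 arrays of 29M lay above all 4 of 3M for 7 of the 16 probes and below them for 0, where over all probes tested 5.34% separated upward and 5.25% downward.

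**Figure D1:**
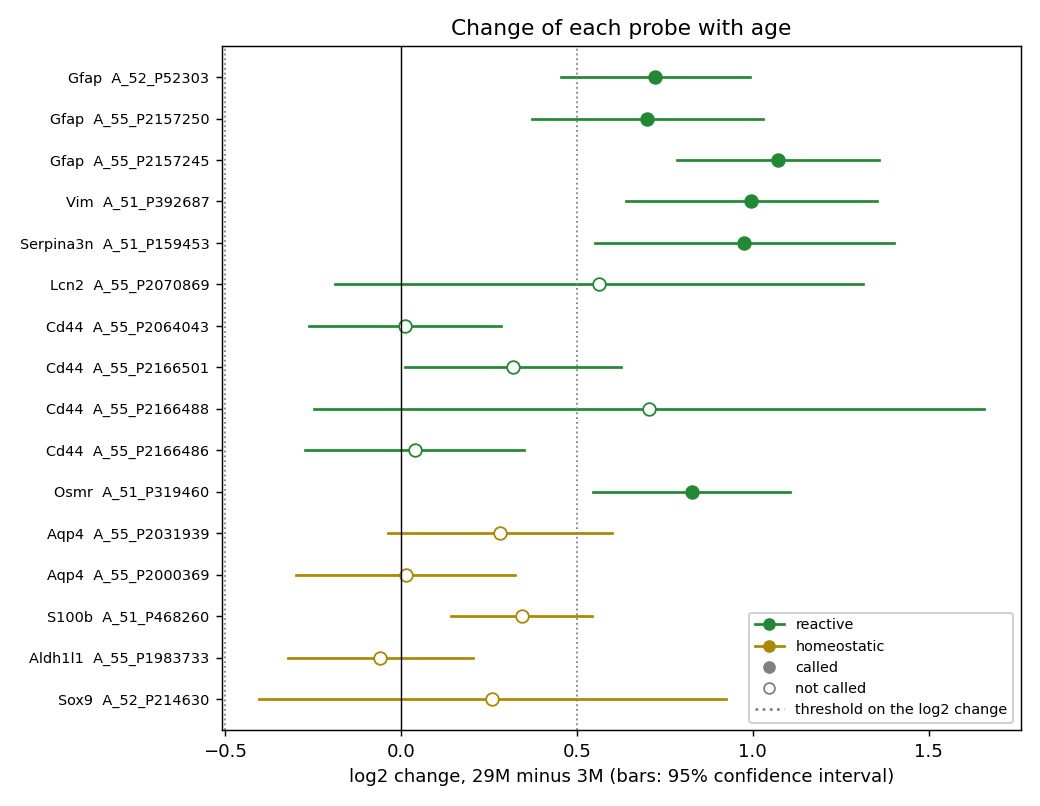
Log2 change (29M minus 3M, horizontal axis) of each of the 16 probes with its 95% confidence interval as a bar, with filled points for called probes and open points for the others. The 6 called probes, of Gfap, Vim, Serpina3n and Osmr, lie between 0.70 and 1.07, and those of the homeostatic genes between -0.06 and 0.34.

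Of the genes for intermediate filaments, Gfap and Vim rose in the aged hippocampus. Gfap encodes glial fibrillary acidic protein, the main intermediate filament of mature astrocytes and the classical marker of reactive gliosis, and it was measured by 3 probes. On its brightest probe (A_52_P52303) the log2 intensities in 3M replicates 1 to 4 were 15.75, 15.56, 15.39 and 15.34, and those in 29M replicates 1 to 4 were 16.22, 16.32, 16.40 and 15.99. All aged samples were above all young ones, and the means of 15.51 ± 0.18 and 16.24 ± 0.18 (SD, n = 4) differed by 0.72 (SE 0.12, adjusted p = 0.0226 in limma), or 1.65-fold.

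The other probes of Gfap gave the same direction with sizes that differed. Probe A_55_P2157245, which the files assign to the same transcript accession as the brightest probe, rose from 11.39 ± 0.15 to 12.46 ± 0.23, a log2 change of 1.07 (SE 0.13, adjusted p = 0.00490), or 2.10-fold. Its values were 11.59, 11.32, 11.42 and 11.24 in 3M and 12.54, 12.73, 12.42 and 12.17 in 29M, so the gap between the groups was wider than the spread within either. Probe A_55_P2157250, assigned to a second Gfap transcript, rose by 0.70 (SE 0.15, adjusted p = 0.0534), from 13.80 ± 0.23 to 14.50 ± 0.25, with its lowest aged sample at 14.14 and its highest young one at 14.004. This probe was not called in 8 of 19 alternatives, among them without any 1 of 3M replicates 2 and 3 or 29M replicates 1, 2 and 3 (0.59 to 0.82, adjusted p 0.0129 to 0.153 over all). Taking the difference between the first of these and the brightest probe within each array, it was -4.12 in 3M (-4.24 to -3.97) and -3.77 in 29M (-3.99 to -3.59), so that the interval between both probes of the same transcript narrowed by 0.35 with a slight overlap of the groups. That difference was not tested.

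Vim encodes vimentin, an intermediate filament made by immature and reactive astrocytes and also by blood vessel, meningeal and ependymal cells. Its log2 intensities were 14.82, 14.43, 13.96 and 14.50 in 3M and 15.36, 15.49, 15.52 and 15.31 in 29M. The aged samples were tightly grouped and all higher, and the change from 14.43 ± 0.36 to 15.42 ± 0.10 was 0.996 (SE 0.16, adjusted p = 0.0190), or 1.99-fold. The genes of 4 filament partners, proteins that copolymerise with or crosslink GFAP and vimentin, did not follow, with 0 called in either direction by limma and 0 at an unadjusted p under 0.05. The largest differences among them were -0.20 for Synm (synemin, adjusted p = 0.372) and 0.13 for Nes (nestin, adjusted p = 0.763).

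Among the receptors, Osmr rose and Cd44 gave no call. Osmr encodes the subunit that binds oncostatin M, a cytokine of the interleukin-6 family, and pairs with the shared subunit gp130. Its log2 intensities were 10.87, 10.51, 10.40 and 10.66 in 3M and 11.39, 11.52, 11.62 and 11.22 in 29M. No aged sample reached down to the young ones, and the change was 0.83 (SE 0.12, adjusted p = 0.0149), or 1.77-fold.

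Cd44 encodes a surface receptor for hyaluronan and osteopontin that marks some reactive and fibrous astrocytes as well as immune cells, and its 4 probes, all assigned to 1 transcript, did not give 1 picture. The brightest one (A_55_P2064043) read 10.92, 11.02, 11.06 and 10.94 in 3M and 11.02, 11.10, 11.22 and 10.64 in 29M. The groups overlapped fully, and the difference of 0.01 had a 95% interval from -0.26 to 0.28 (adjusted p = 0.982). Probe A_55_P2166501 differed by 0.32 (0.01 to 0.62, adjusted p = 0.288), and in it 29M replicate 4, at 6.72, lay below the other aged samples at 7.15 to 7.23. Over the alternatives in processing its difference ran from 0.24 to 0.65, with no call. The remaining probes were near background. A_55_P2166488 was not well above background in any 3M array and was so in 1 of 4 arrays of 29M (replicate 3, at 7.92 against 5.63 to 5.96 in the others), so that its difference of 0.71 (-0.25 to 1.66, adjusted p = 0.459) rests on that array and was 0.17 without it. A_55_P2166486 was well above background on 1 array of 29M and, in 3M, only on replicate 1, whose spot was left out as an outlier. Its difference of 0.04 (adjusted p = 0.928) rests on 3 samples of 3M, none of them well above background.

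**Figure D2:**
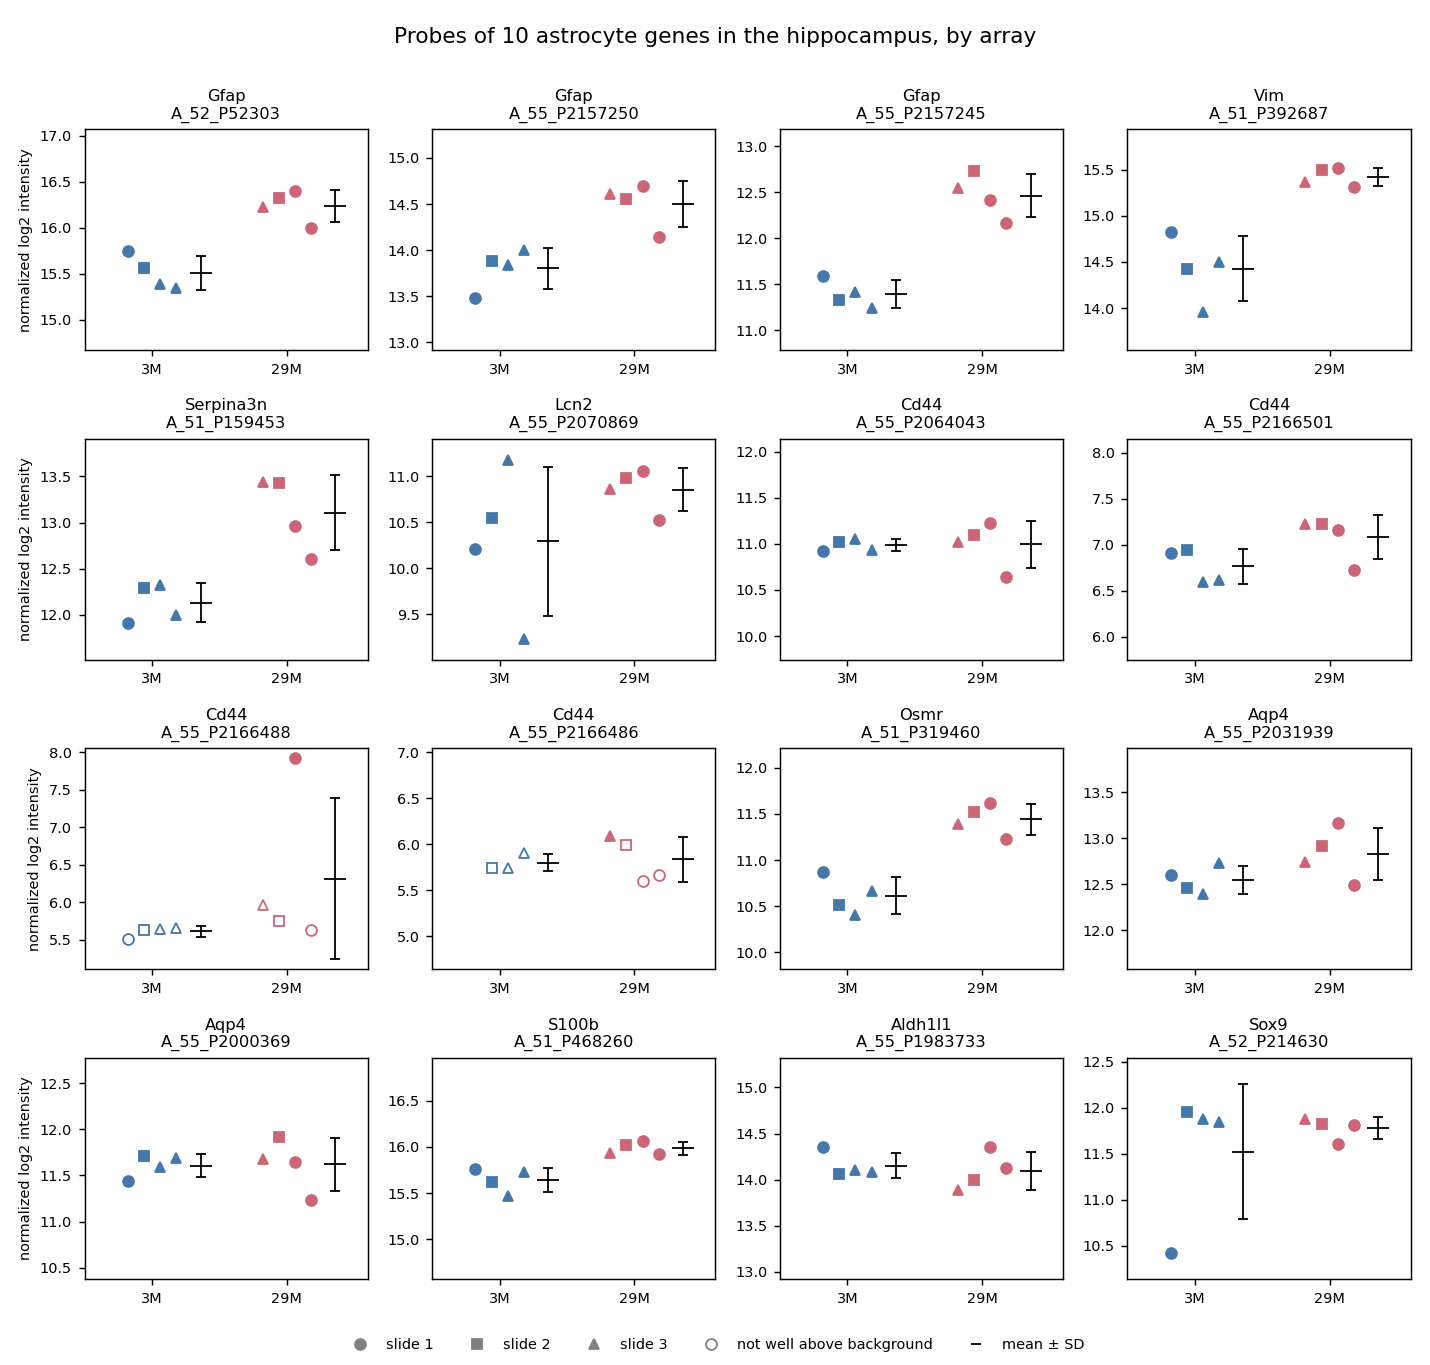
Normalized log2 intensity (vertical axis) of every member probe in each of the 4 samples of 3M and 4 of 29M, with 1 panel per probe, points for samples, symbols for the 3 slides, and a bar for each group mean. In the panels of Gfap, Vim, Serpina3n, Osmr and S100b all points of 29M lie above all points of 3M, while the other panels show overlapping groups.

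Of the secreted proteins, Serpina3n rose and Lcn2 was too variable to call. Serpina3n encodes a serine protease inhibitor of the acute phase and is among the genes most regularly induced in reactive astrocytes, though oligodendrocytes can make it too. Its log2 intensities were 11.91, 12.29, 12.33 and 11.997 in 3M and 13.44, 13.43, 12.96 and 12.60 in 29M. The aged samples fell into a higher and a lower pair, yet all were above the young ones, and the change from 12.13 ± 0.21 to 13.11 ± 0.40 was 0.98 (SE 0.19, adjusted p = 0.0419), or 1.97-fold. It was not called without 29M replicate 1 or 2, at 0.87 and 0.87 (adjusted p = 0.122 and 0.116), nor with scaling to the 75th percentile, at 0.99 (adjusted p = 0.122), and its adjusted p ranged from 0.00880 to 0.122 over all 19 alternatives.

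Lcn2 encodes lipocalin 2, an iron-trafficking protein that reactive astrocytes and endothelial cells release. It read 10.21, 10.54, 11.18 and 9.23 in 3M and 10.86, 10.97, 11.06 and 10.52 in 29M. The young samples spanned 1.94 log2 units, more than any other of the 16 probes in that group, and enclosed all of the aged ones. The difference of 0.56 had a 95% interval from -0.19 to 1.31 (adjusted p = 0.453), which includes both no change and a rise as large as that of Vim. It was 0.21 without 3M replicate 4 and 0.86 without 3M replicate 3, with no call in either case.

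The promoter stretches of the 4 genes that rose are shown because the study itself searched such windows for binding sites of STAT, AP-1, IRF and NF-kB factors. Each line gives the 250 bases before a transcript start in RefSeq (GRCm38.p6), 5′ to 3′ on the strand of the gene, with matches to a searched motif in capitals. The windows are chr11:102897201-102897450 (minus strand) for Gfap, chr2:13574061-13574310 (plus) for Vim, chr12:104406458-104406707 (plus) for Serpina3n and chr15:6874314-6874563 (minus) for Osmr, and the starts of Serpina3n and Osmr lie inside the outer bounds of their genes.
Gfap: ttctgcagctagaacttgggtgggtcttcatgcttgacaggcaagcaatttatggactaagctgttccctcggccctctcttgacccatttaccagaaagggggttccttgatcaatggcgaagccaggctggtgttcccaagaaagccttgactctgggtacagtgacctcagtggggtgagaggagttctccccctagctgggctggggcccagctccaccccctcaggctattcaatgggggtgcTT
Vim: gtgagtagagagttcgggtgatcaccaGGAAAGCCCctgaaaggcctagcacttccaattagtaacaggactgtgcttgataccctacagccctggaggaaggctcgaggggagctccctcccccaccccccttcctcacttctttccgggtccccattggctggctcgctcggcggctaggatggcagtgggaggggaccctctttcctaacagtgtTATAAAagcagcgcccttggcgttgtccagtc
Serpina3n: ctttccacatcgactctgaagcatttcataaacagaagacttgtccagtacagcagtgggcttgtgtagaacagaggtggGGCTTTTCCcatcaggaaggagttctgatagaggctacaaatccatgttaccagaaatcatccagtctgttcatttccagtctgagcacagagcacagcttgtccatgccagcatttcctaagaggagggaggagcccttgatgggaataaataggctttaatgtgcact
Osmr: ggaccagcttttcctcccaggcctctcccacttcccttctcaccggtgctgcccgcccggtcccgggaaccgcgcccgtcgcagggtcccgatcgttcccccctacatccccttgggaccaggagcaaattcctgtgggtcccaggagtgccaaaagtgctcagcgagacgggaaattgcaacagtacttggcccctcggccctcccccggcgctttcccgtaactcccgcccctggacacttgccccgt

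A STAT motif, TTCNNNGAA, was searched on both strands together with TGANTCA for AP-1, GAANNGAAA for IRF and GGNNTTTCC for NF-kB, in windows of 300 bases that reach 50 bases past the start. A window was at hand for 8 of the 10 genes. The STAT letters occurred in 1 of them, that of Gfap, as TTCCAGGAA across the start itself (positions -2 to 7), and in 8.29% of 32817 promoters of the same length. The AP-1 letters occurred only in Osmr (positions 4 to 10, past the printed stretch, 7.81% of promoters) and the IRF letters only in Aldh1l1 (-229 to -221, 7.52% of promoters). The NF-kB letters occurred in Vim (-223 to -215, on the other strand) and Serpina3n (-170 to -162), and in 5.83% of promoters. Vim also held TATAAA, the letters of a TATA box, at -32 to -27, and so did 13.6% of promoters. No match overlapped another, and none of these motifs was found in all 4 genes that rose. The matches describe letters and not bound sites.

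None of the homeostatic genes was called. S100b, which encodes a calcium-binding protein of mature astrocytes and some oligodendrocyte lineage cells, came closest. It read 15.76, 15.62, 15.47 and 15.72 in 3M and 15.93, 16.02, 16.07 and 15.93 in 29M. The groups did not overlap, but the difference of 0.34 (0.14 to 0.54, SE 0.09, unadjusted p = 0.00346, adjusted p = 0.101 in limma) was below the fold threshold and just short of the threshold on adjusted p. Over the 19 alternatives the difference ran from 0.28 to 0.38, always below the fold threshold. The adjusted p in limma ran from 0.0350 to 0.251, so that some alternatives passed the threshold on adjusted p alone.

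Aqp4 encodes the water channel of the astrocyte endfoot and had 2 probes. The brighter one read 12.60, 12.46, 12.39 and 12.73 in 3M and 12.74, 12.91, 13.16 and 12.49 in 29M. The groups overlapped, with 29M replicate 4 among the young samples, and the difference of 0.28 had an interval from -0.04 to 0.60 (adjusted p = 0.369) and was 0.17 without 29M replicate 3. The dimmer probe differed by 0.01 (-0.30 to 0.32, adjusted p = 0.979).

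Aldh1l1 encodes a folate-dependent dehydrogenase that is widely used as a marker of all astrocytes. It read 14.36, 14.06, 14.11 and 14.08 in 3M and 13.89, 14.00, 14.36 and 14.13 in 29M. The groups overlapped, and the difference of -0.06 had an interval from -0.32 to 0.20 (adjusted p = 0.858), which leaves out a change as large as that of Gfap, Vim, Serpina3n or Osmr in either direction.

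Sox9 encodes a transcription factor that stays on in nearly all adult astrocytes and in neural stem cells, and its probe was the only one of the 16 printed on each array 10 times. It read 10.43, 11.95, 11.87 and 11.84 in 3M and 11.88, 11.82, 11.61 and 11.82 in 29M. Replicate 1 of 3M was far below the other 7 samples, and the mean difference of 0.26 (-0.41 to 0.92, adjusted p = 0.726) became -0.11 without that array.

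The 3 slides gave the same sign for all 6 called probes. The differences between the groups within slides 1, 2 and 3 were 0.45, 0.76 and 0.86 for the brightest Gfap probe, 0.59, 1.07 and 1.14 for Vim, 0.87, 1.14 and 1.27 for Serpina3n, and 0.55, 1.01 and 0.86 for Osmr. Slide 1, which held replicate 1 of 3M with replicates 3 and 4 of 29M, gave the smallest difference for these 4 probes. It also gave the smallest for Gfap probe A_55_P2157245, at 0.71, 1.40 and 1.21, and the largest for Gfap probe A_55_P2157250, at 0.94, 0.68 and 0.69. S100b was also higher in 29M on each slide, by 0.24, 0.39 and 0.34, Lcn2 by 0.58, 0.43 and 0.65, and the brighter Aqp4 probe by 0.23, 0.46 and 0.18. The brightest Cd44 probe was above 0 on each slide by less than 0.1. Aldh1l1 was below 0 on each slide, at -0.11, -0.06 and -0.21. Sox9 differed by 1.29 on slide 1, and by -0.13 and 0.02 on the others.

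**Figure D3:**
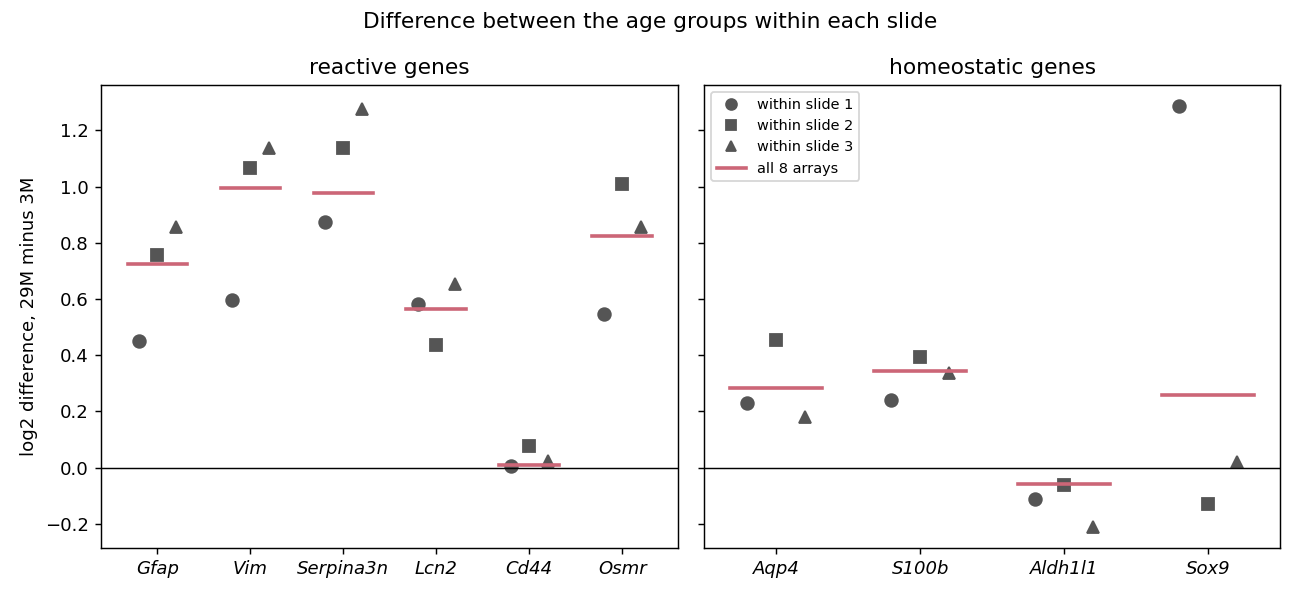
Difference in log2 intensity (29M minus 3M, vertical axis) within each of the 3 slides (grey symbols) and over all 8 arrays (red bars) for the probe with the highest mean of each of the 10 genes. All 3 slides lie above 0 for Gfap, Vim, Serpina3n, Osmr, Lcn2, S100b and Aqp4, and by less than 0.1 for Cd44. For Aldh1l1 all 3 slides lie below 0, and for Sox9 slide 1 at 1.29 stands apart from the other slides.

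The aged samples did not carry the reactive genes to the same level. Replicate 4 of 29M was the lowest of its group for 6 of 6 reactive genes, taking for each the probe of highest mean, and replicate 3 was the highest for 5 of 6. For the homeostatic genes replicate 4 was lowest for 2 of 4 and replicate 3 highest for 3 of 4. The mean deviation over the 6 reactive genes was 0.05 in replicate 4 and 0.38 to 0.47 in the other aged samples, against -0.55 to -0.25 in the young ones. Over the 4 homeostatic genes it was 0.02 in replicate 4 and 0.04 to 0.23 in the other aged samples. Of the aged arrays, that of replicate 4 also had the smallest share of spots well above background, 78.9% against 80.6% to 84.2%. Whether this has a part in its low values was not tested. Replicate 4 was also the lowest aged sample for markers of microglia (-0.02), meninges (-0.51), oligodendrocytes (-0.02), endothelium (-0.08) and progenitors (-0.27), but not for those of neurons, choroid plexus or ependyma. Replicate 3 was the highest aged sample for markers of meninges (0.59), microglia (0.32), choroid plexus (0.22), oligodendrocytes (0.14) and ependyma (0.10). It was not the highest for those of neurons, endothelium or progenitors. The part of these cells in the low and high values of the reactive genes was not tested.

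The wider set of 119 genes around these members showed 11 genes called higher and 1 called lower, each read by its probe with the highest mean, as were the 1.55% of all named genes called higher and 0.623% called lower. Of the 119, 36 had an unadjusted p under 0.05, a level that 16.5% of all named genes passed, 75 were higher in the mean, and the median change was 0.06. Leaving out 1 array gave 6 (without 29M replicate 2) to 18 (without 3M replicate 1) called higher. Of the 11 higher calls, 7 stood in the 3 lists of reactive genes. Of 7 further pan-reactive genes, which are induced in several forms of reactivity, 3 were called higher and 0 lower, all 7 were higher in the mean, and the median was 0.41. Aspg, an asparaginase, rose by 1.09 (SE 0.10, adjusted p = 0.00205), from 11.04 to 11.38 in the young samples to 12.23 to 12.38 in the aged ones. Cxcl10, a chemokine induced by interferon, rose by 1.12 (SE 0.22, adjusted p = 0.0418), and was not called in 4 of 19 alternatives, among them without 29M replicate 2 or 4 (log2 change 0.94 to 1.29 and adjusted p 0.00849 to 0.123 over all). Timp1, an inhibitor of matrix metalloproteinases, rose by 1.22 (SE 0.28, adjusted p = 0.0656), with its lowest aged sample at 8.41 against a highest young one of 8.32. Timp1 was not called in 9 alternatives, among them without any 1 of 3M replicates 2, 3 and 4 or 29M replicates 1, 2 and 3 (1.01 to 1.502, adjusted p 0.0109 to 0.177 over all).

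Among 12 genes of the reactive state linked to neuroinflammation, 3 were called higher and 0 lower, with a median of 0.53. C3, the central complement component, rose most, by 2.34 (SE 0.31, adjusted p = 0.00837) or 5.08-fold, with 9.11 to 10.76 in 3M and 12.40 to 12.79 in 29M. Fbln5, an elastic fibre protein, rose by 0.67 (SE 0.11, adjusted p = 0.0225) on the brighter of its 2 probes, and the other was not called. H2-D1, a class I histocompatibility gene whose probe may also read near-identical relatives, was called at 0.79 (adjusted p = 0.0982) with overlapping groups, and was not called in 14 of 19 alternatives, among them without any 1 array other than 3M replicate 1 (0.68 to 1.01, adjusted p 0.00433 to 0.240 over all). Among 12 genes linked to ischemia, 1 was called higher and 0 lower, with a median of 0.28. That gene was Tgm1, a transglutaminase, which was not well above background in any 3M array and was at least 2.01-fold higher in 29M by the normalization used here (measured means 5.89 and 6.97, adjusted p = 0.0235). Its log2 change was 0.84 (normexp) to 2.39 (75th percentile) over the alternatives, all called, and 0.94 without 29M replicate 2, so that the bound holds for that normalization and all 8 arrays only.

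Of 23 other genes of the Osmr and Stat3 pathway (ligands, receptors, kinases, STAT3, its inhibitors and its targets), 2 were called higher, and 1 lower, with a median of 0.01. Socs3, the feedback inhibitor that STAT3 induces, read 10.59, 10.20, 10.46 and 9.89 in 3M and 11.52, 11.72, 11.51 and 11.08 in 29M. The groups were well apart, with a change of 1.17 (SE 0.17, adjusted p = 0.0136) or 2.25-fold. Bcl3, a cofactor of NF-kB that STAT3 can induce, rose by 1.80 (SE 0.31, adjusted p = 0.0246), from 8.55 to 10.02 in the young samples to 10.46 to 11.49 in the aged ones. The gene that fell was Cntfr, the receptor subunit for ciliary neurotrophic factor, which is also made by neurons. It read 13.04, 12.53, 12.59 and 12.62 in 3M and 10.84, 10.62, 11.34 and 9.76 in 29M, and fell by 2.06 on the log2 scale (SE 0.28, adjusted p = 0.00942). Cntfr had only 1 probe, and its aged samples spread more widely than the young ones.

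Among 8 ligands and receptors of the members, 1 was called higher and 0 lower, with a median of -0.00. This was Spp1, which encodes osteopontin, a ligand of CD44 made by microglia and other cells, at 1.30 (SE 0.30, adjusted p = 0.0725). Its values were 10.98, 10.04, 10.69 and 9.40 in 3M and 11.50, 11.66, 11.90 and 11.25 in 29M, and all aged samples were above the young ones. Spp1 was not called in 11 of 19 alternatives, among them without any 1 of 3M replicates 2 and 3 or the 29M replicates (1.01 to 1.53, adjusted p 0.00996 to 0.195 over all). Among 10 enzymes of one-carbon metabolism, the pathway of ALDH1L1, 1 was called higher and 0 lower, with a median of 0.12, namely the mitochondrial relative Aldh1l2 at 0.85 (SE 0.18, adjusted p = 0.0554). It too was not called in 11 alternatives, among them without any 1 of 3M replicates 2, 3 and 4 or 29M replicates 1, 2 and 3 (0.76 to 1.04, adjusted p 0.00743 to 0.164 over all).

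The lists of further homeostatic, endfoot and transcription factor genes held no call. Over all named genes, 16.5% had an unadjusted p under 0.05 in limma. Of 24 further homeostatic astrocyte genes 0 were called by limma in either direction, 4 had an unadjusted p under 0.05, 10 were higher in the mean, and the median was -0.02. The largest differences among them were 0.43 for Hepacam (an adhesion protein of astrocytes, adjusted p = 0.234) and -0.38 for Slc4a4 (a sodium bicarbonate transporter, adjusted p = 0.460). Of 8 genes of the endfoot complex that holds AQP4 in place, 0 were called by limma and 2 had an unadjusted p under 0.05, with a median of -0.01. Dag1 (dystroglycan) differed by -0.71 (SE 0.22, adjusted p = 0.149) and Lama2 (a laminin chain) by 0.37 (adjusted p = 0.267). Of 12 glial transcription factors 0 were called by limma and 3 had an unadjusted p under 0.05, with a median of -0.03. Id1 differed by 0.44 (adjusted p = 0.107) and Nfia by -0.37 (adjusted p = 0.420).

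**Figure D4:**
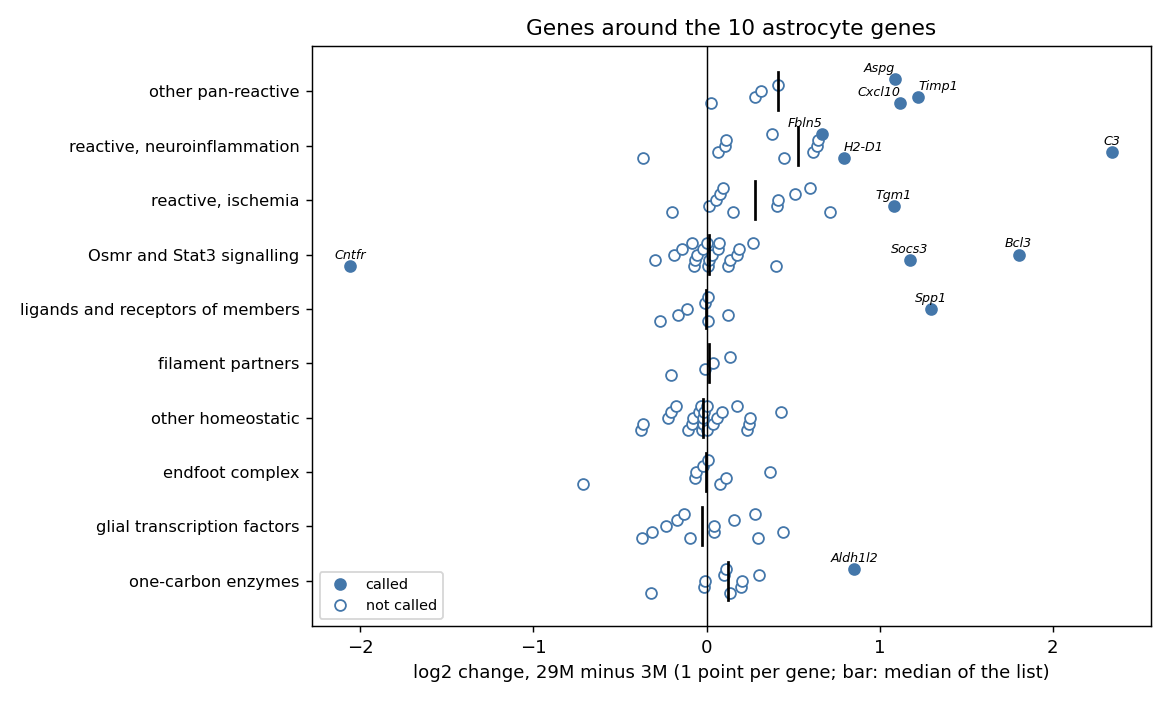
Log2 change (29M minus 3M, horizontal axis) of each gene of the 10 lists around the members, with 1 point per gene, filled where called, and a black bar at the median of each list. The medians of the reactive lists are 0.41, 0.53 and 0.28, and those of the other lists lie between -0.03 and 0.12.

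Markers of other cell types were followed beside these changes. The 12 neuron markers had 0 calls in limma and 0 genes at an unadjusted p under 0.05, with a median of 0.02. Of the 11 measured microglia markers 2 were called higher and 0 lower, with a median of 0.37, and 7 had an unadjusted p under 0.05 (16.5% over all named genes, for this and the lists that follow). C1qa, a subunit of the complement component C1q, rose by 0.87 (adjusted p = 0.0115), and Trem2, a lipid-sensing receptor, by 0.66 (adjusted p = 0.0485). The mean deviation of the microglia markers ranged from -0.32 to 0.12 in 3M and from -0.02 to 0.32 in 29M, and whether it has a part in the rise of Serpina3n, Vim, C3 or Spp1 was not tested. Markers of oligodendrocytes, endothelium, meninges, choroid plexus and ependyma, with 10, 10, 9, 8 and 6 genes, held 0 calls in limma and 1, 2, 1, 0 and 0 genes at an unadjusted p under 0.05, at medians of 0.17, 0.05, 0.22, 0.20 and -0.09, each gene by its probe with the highest mean. Among oligodendrocyte markers, Mbp and Ermn each had 1 other probe that was called higher. Vim is also made by several of these cells, and their part in its change was not tested. Some neural progenitors also carry Gfap, Vim and Sox9, but not every progenitor marker looked up is particular to those cells. Of 7 markers of neural progenitors 2 were lower, Mki67 at -0.79 (adjusted p = 0.0238) and Tfap2c at -0.66 (adjusted p = 0.0532). The median was -0.44, and Sox11 had 1 other probe that was called lower. Tfap2c was near background, well above it on 3 arrays of 3M and 2 of 29M, so the size of its fall is uncertain.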

How the data were processed

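The titles of the samples gave the group and the replicate number. For each array the authors deposited the output of Agilent Feature Extraction (version 10.7.3.1 per the file headers, which differs from the version, scanner and array design in the study's methods) as linear spot intensities before any normalization between arrays, with other columns deposited as flags for controls, outliers and spots well above background. A deposited table of the whole series held intensities equal to the mean local background of an array in all 8 columns (tolerance 0.001, column medians 26.7 to 34.8, in 7 of the 8 an array other than the one named and in 4 an array of the other age group, with no scale, centring or direction of expression to be found), and it was not used.

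Control and outlier spots (127 to 190 outliers per array) were left out. Median spot intensities were used because the mean intensity that had been planned was not in the files used here. As in the study's methods, variance stabilising normalization, which ends in a generalized log2 and understates changes of dim probes, was followed by a linear model for age in limma 3.58.1 with eBayes, in R 4.3.3. The normalization was written for this purpose (least trimmed squares, quantile 0.9, 7 iterations) and tested with the fit on simulated data. Probes with at least 3 usable arrays per group were tested. P-values were adjusted by Benjamini-Hochberg over all of them, and intervals are 95% intervals of the fit. Calls required an adjusted p under 0.1 with a log2 change of 0.5 or more in size.

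Accessions were matched to RefSeq genes (GRCm38.p6), which named 26055 of 39429 probes. A member gene counted as called with 1 or more called probes. All probes of members were reported, and a gene of another list was read by the probe that had its highest mean. From those lists the called genes were named, or, where none was called, the pair with the largest absolute change, and marker genes only where called. The mean deviation of a list is the mean over its genes of each sample's difference from the gene's mean over all arrays. Members and lists were chosen with earlier results of these data known, so no list is independent evidence of its direction. Cd68 had no matched probe. Alternatives were 3 other normalizations, kept outlier spots, bright probes only, slide as a fixed or random block, the replicate number as a block, array weights, a robust prior with an intensity trend, an adjusted p under 0.05, and leaving out each array in turn.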

Additional observations from a re-analysis of the deposited data

Results flagged for a closer look

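Of 31 groups of 4 values examined, 4 had 1 sample far from the others, where chance gives about 1 in 20 groups, or 1.55. The measure is the gap to the nearest sample as a share of the whole range of the group. Replicate 1 of 3M was the high sample for Aldh1l1 (0.841, at 14.36 against 14.06 to 14.11) and the low sample for Sox9 (0.927, at 10.43 against 11.84 to 11.95). Replicate 4 of 29M was the low sample for Cd44 probe A_55_P2166501 (0.856), and replicate 3 of 29M the high sample for Cd44 probe A_55_P2166488 (0.858), where it was the only array well above background.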

How the results depend on the processing

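Over 19 alternatives the number of member probes called higher was 4 to 6 and of member genes 3 to 4, with 0 called lower. The brightest Gfap probe, Gfap probe A_55_P2157245, Vim and Osmr were called in all of them, Serpina3n in 16 and Gfap probe A_55_P2157250 in 11. Of 299 recomputed values of single probes, 268 kept their direction and side of the threshold, 11 lost their call and 20, all of probes that were never called, changed sign. These were -0.13, -0.0085 and -0.12 for Aqp4 probe A_55_P2000369 with scaling to the 75th percentile, normexp with quantile normalization, and variance stabilisation of the processed signal, 0.038 and 0.049 for Aldh1l1 with the first and last of these, and -0.016 for Cd44 probe A_55_P2064043 with normexp. Cd44 probe A_55_P2166486 was at -0.44 with outlier spots kept and -0.046 with the replicate number as a block. With single arrays left out, values ran from -0.066 to 0.13 for Cd44 probe A_55_P2064043, -0.046 to 0.12 for A_55_P2166486, -0.087 to 0.14 for Aqp4 probe A_55_P2000369, -0.15 to 0.010 for Aldh1l1 and -0.11 to 0.40 for Sox9. The 2 dim Cd44 probes had no value where only bright probes were kept, nor A_55_P2166486 without some arrays.

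Of the 119 genes of the surrounding lists, 11 were higher and 1 lower. The number higher was 7 with scaling to the 75th percentile, 17 with array weights and 7 at an adjusted p under 0.05, and the number lower was 2 with slide as a fixed block and 2 with array weights. Leaving out 1 array gave 6 to 18 higher (18 without replicate 1 of 3M, 6 without replicate 2 of 29M) and 1 to 4 lower (4 without replicate 1 of 3M). The causes were not tested.

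The replicate numbers were not taken to pair samples, since deviations of same-numbered samples correlated at -0.27, 0.22, -0.21 and 0.08 (replicates 1 to 4), and of these pairs replicates 2 alone also share a slide. With the replicate number as a block 5 member probes of 4 genes and 8 genes of the lists were higher, and 285 probes in all against 478. Over all probes the number called higher ran from 253 (without replicate 2 of 3M) to 850 (without replicate 1 of 3M) and the number lower from 127 to 536.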
